A study of Arabidopsis thaliana with 7 samples.

Results

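The gene expression of sta1 mutant seedlings of Arabidopsis thaliana was set against that of Col-LUC wild-type seedlings, gene by gene and by gene function. The comparison used 2 sta1 and 4 Col-LUC samples, each hybridised to 1 Affymetrix ATH1 array, out of the 7 arrays of the study. The array of C24-LUC, another natural strain, was left out. A probe set, the group of oligonucleotides that measures a transcript, was tested where its signal reached 100 on at least 2 of the 6 arrays. This held for 15537 of the 22746 probe sets that are not controls (68.3%), of which 8436 were annotated to a single gene.

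All seedlings of both groups were 2 weeks old, untreated, and grown at 22 °C on Murashige and Skoog agar with 3% sucrose in days of 16 h light and 8 h dark. The Col-LUC plants are labelled as wild type of the Col strain, and the mutant plants carry the name sta1 with no allele given. Whether the mutant line also carries LUC is not given in the labels. The growth text of both sta1 samples names a different mutant, ice1, and speaks of a treatment, whereas their titles read sta1 and no treatment. Groups were taken from the titles. Nothing in the labels places the samples of a group in separate cultures, so the p-values reflect array-to-array spread that may be technical. The level of the STA1 transcript was not analysed here.

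The study's title describes STA1 as a nuclear protein that splicing of pre-mRNA, turnover of mRNA and tolerance of stress depend on. Pre-mRNA splicing removes introns through the spliceosome, a set of small nuclear RNAs and proteins, and STA1 resembles the Prp6 splicing factor of yeast and human cells. An ATH1 probe set reads the abundance of sequence near the end of a transcript and does not separate spliced from unspliced RNA.

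The 6 arrays were evenly scaled, with median signals between 208 and 214. The 2 sta1 arrays were the closest pair, with a median absolute difference of 0.154 on the log2 scale, against 0.195 to 0.320 between Col-LUC arrays. Col-LUC 1 stood apart from its group: its median difference was 0.209 from sta1 1 and 0.237 from sta1 2, and 0.246 to 0.320 from the other Col-LUC arrays. On the first principal component, which held 63.2% of the variance, Col-LUC 1 scored 19.1, between the sta1 arrays at 45.0 and 45.2 and the other Col-LUC arrays at −48.5 to −14.9. Col-LUC 1 came from the same chip lot as both sta1 arrays and had the same hybridisation date as sta1 1. Col-LUC 2 and 3 came from lots of their own, and the lot of Col-LUC 4 was not given. Results are therefore given over all 6 arrays, without Col-LUC 1, and within the shared lot, that is, as the mean of the sta1 arrays minus Col-LUC 1. The within-lot difference has a single wild-type array.

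**Figure D1:**
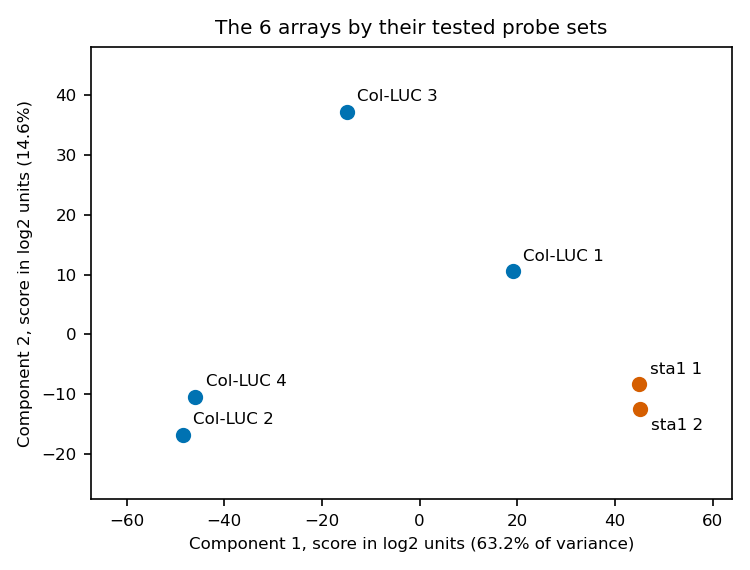
Scores of the 6 arrays on the first and second principal components of log2 signals of the 15537 tested probe sets, with sta1 in orange and Col-LUC in blue. The sta1 arrays lie together at 45.0 and 45.2 on the first component, and Col-LUC 1 at 19.1 is the Col-LUC array nearest to them.

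The seedling samples held markers of both green tissue and root. Markers of seed and flower are not reported here. RCA, the activase of the carbon-fixing enzyme Rubisco and a marker of green tissue, gave signals from 12285 to 15664 over the 6 arrays. The root gene PYK10, a beta-glucosidase, ranged from 9533 to 13976, and EXPA7, an expansin of root hairs, from 96.4 to 291. The 3 root markers measured (PYK10, EXPA7 and EXPA18) overlapped between the groups, with a median difference of −0.15 (−0.47 within the lot). All 5 green shoot markers lay below every Col-LUC array in both sta1 arrays, with a median of −0.55 (−0.41 within the lot). Over all tested probe sets 18.8% did so. The markers RCA, PRK, LHCB4.1, PSAN and PSAE-1 are counted again in the photosystem and carbon fixation lists below. In such bulk samples, fewer cells of a type and less RNA per cell cannot be told apart.

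Across all tested probe sets the median difference was 0.008 on the log2 scale; the scaling of every array to the same target holds it near 0. At an adjusted p under 0.05 (limma, Benjamini-Hochberg over all tested probe sets), 95 probe sets were higher in sta1 (0.611%) and 98 were lower (0.631%). For all 193 of them both sta1 arrays lay beyond all Col-LUC arrays, which fixes the sign of the within-lot difference. Such separation alone was common: both sta1 arrays lay above all Col-LUC arrays for 3121 probe sets (20.1%) and below for 2916 (18.8%). These shares are the background for the counts of separated list members given below. Adjusted p-values of the calls ran from 0.0179 to 0.0498. For 25 of the higher and 10 of the lower probe sets, fewer than 2 arrays of the group with the lower signal reached 100, so they were tested only because of the other group and had to differ. Among the genes described below these are AT2G04050, AT2G18190, AT2G03130, AT5G60250, AT1G17960, AT2G04070, AT3G45730, AT2G32020, NDB4, ICL, BHLH101 and UGT73C1 on the higher side and AT3G46490, AT3G43670 and AT1G63240 on the lower. Uncalled genes below with the same limit are ZIP9 and WRKY53 on the higher side and SP1L4 and PRA1.F1 on the lower. Signals under 50 entered the fit as 50, so a difference that involves them is a lower bound with an SE that the floor narrows.

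The called gains had a median of 1.51 (1.23 within the lot), and 77 of the 95 were at least 2-fold. Called losses had a median of −1.30 (−1.03 within the lot), with 76 of 98 at least 2-fold. Beyond the calls, separation with at least a 2-fold difference was seen for a further 348 higher and 394 lower probe sets. Leaving out Col-LUC 1 raised the counts to 1440 higher (9.35% of those tested) and 1385 lower (8.99%), among them all 193. No wild-type array known to share the sta1 lot remains in that fit, so genotype and lot cannot be told apart there. The 9.35% and 8.99% are the background for the counts of list members called without Col-LUC 1 below. The limma fit called 0 probe sets in either direction when Col-LUC 2, Col-LUC 3, Col-LUC 4, sta1 1 or sta1 2 was left out, with 1535 to 3517 at an unadjusted p under 0.05. It likewise called 0 with chip lot as a block, where 2346 had an unadjusted p under 0.05. That block fit estimates nearly as many terms as there are arrays, so its lack of calls says little about the main calls.

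**Figure D2:**
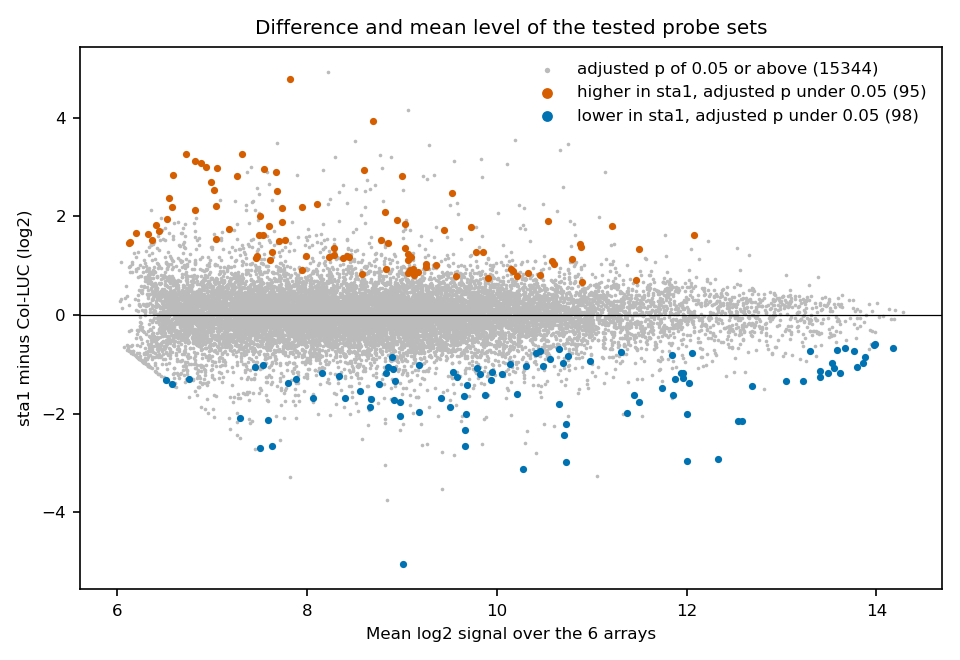
Difference between sta1 and Col-LUC (log2, vertical axis) against the mean log2 signal over the 6 arrays for each tested probe set. The 95 called higher are orange, the 98 called lower are blue, and the rest are grey; the called differences reach 4.78 and −5.05.

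Of the called probe sets, 49 higher and 44 lower measured a single gene, and most of these genes are known here by locus alone. The largest gain was AT2G04050, whose signals were 211, 11.3, 41.1 and 59.9 in Col-LUC 1 to 4 and 1847 and 2295 in sta1. With Col-LUC 2 and 3 under the floor, its log2 difference was at least 4.78 (SE 0.58, adjusted p = 0.0296), and 3.29 within the lot. Both sta1 arrays were thus far above Col-LUC 1, itself the highest of the wild-type arrays. Among the other loci on chromosome 2, 3 show different wild-type levels. AT2G41730 gave 542, 111, 165 and 78.0 in Col-LUC and 2340 and 2785 in sta1 (3.93 ± 0.69, adjusted p = 0.0492). AT2G18190 gave 51.1, 44.9, 56.3 and 62.9 against 425 and 537 (at least 3.12, SE 0.22, adjusted p = 0.0179), with Col-LUC 2 under the floor. For AT2G18190 the wild-type arrays lay within a narrow band near the floor of 50, so that the within-lot difference of 3.22 was no smaller than the full one. In AT2G03130 all Col-LUC signals were under the floor (35.9, 8.9, 19.9 and 13.2), and sta1 gave 227 and 567, at least 7.17-fold more.

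Other loci among the 15 largest gains were AT5G60250, AT5G51440, AT2G21640, AT1G17960, AT2G04070, AT5G43450, AT3G45730 and AT2G32020, with log2 differences from 2.22 to 3.08 and within-lot differences from 1.49 to 2.45. AT2G21640, with no wild-type signal under the floor, read 312, 177, 199 and 137 in Col-LUC and 1277 and 1806 in sta1. Col-LUC signals under the floor occurred in AT5G60250, AT5G51440, AT1G17960, AT2G04070 and AT3G45730, so their differences are lower bounds. AT5G60250, AT1G17960, AT2G04070, AT3G45730 and AT2G32020 are named above among the genes tested only because of the sta1 arrays, which had to differ. On the 5 nuclear chromosomes the share of tested genes that was called ran from 0.571% on chromosome 4 to 1.48% on chromosome 3; there were 14 higher and 4 lower of 1243 tested on chromosome 2, and 2 higher and 5 lower of 1225 on chromosome 4.

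Of the 49 genes that rose, 9 have a symbol of their own in the annotation. NDB4 is an alternative NAD(P)H dehydrogenase, an enzyme of the mitochondrial inner membrane that passes electrons to ubiquinone without pumping protons. Its Col-LUC signals were all under the floor (42.0, 11.1, 6.8 and 8.6) and its sta1 signals were 326 and 700. This was at least 9.55-fold higher; it passed the test (adjusted p = 0.0189) with all wild-type values set to the floor, so that the fit saw no spread among them. ICL, isocitrate lyase, is the glyoxylate cycle enzyme that lets germinating seedlings turn oil into sugar. It gave 160, 30.6, 7.6 and 50.5 in Col-LUC and 423 and 657 in sta1 (at least 2.98, SE 0.51, adjusted p = 0.0476). The groups did not overlap, although Col-LUC 1 lay well above the other wild-type arrays and the within-lot difference was 1.72.

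BHLH101 and PYE are transcription factors of the basic helix-loop-helix family that act in the response to iron deficiency. BHLH101 signals were 155, 82.3, 48.8 and 39.5 in Col-LUC and 677 and 762 in sta1, a log2 difference of at least 3.26 (SE 0.46, adjusted p = 0.0328, 2.21 within the lot). PYE gave 444, 404, 366 and 327 against 880 and 1092, a difference of 1.36 ± 0.18 (adjusted p = 0.0300, 1.14 within the lot). Both genes thus rose, with no overlap, and the rise of BHLH101 was the larger. Of the 10 iron genes tested these were the only calls, and the list's median was 0.14. ZIP9, a metal transporter of the ZIP family named after its values were seen, stood at 62.5 to 74.8 in Col-LUC and at 110 and 108 in sta1 (adjusted p = 0.147). ILR3, a regulator of the same response, overlapped between the groups (−0.28).

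**Figure D3:**
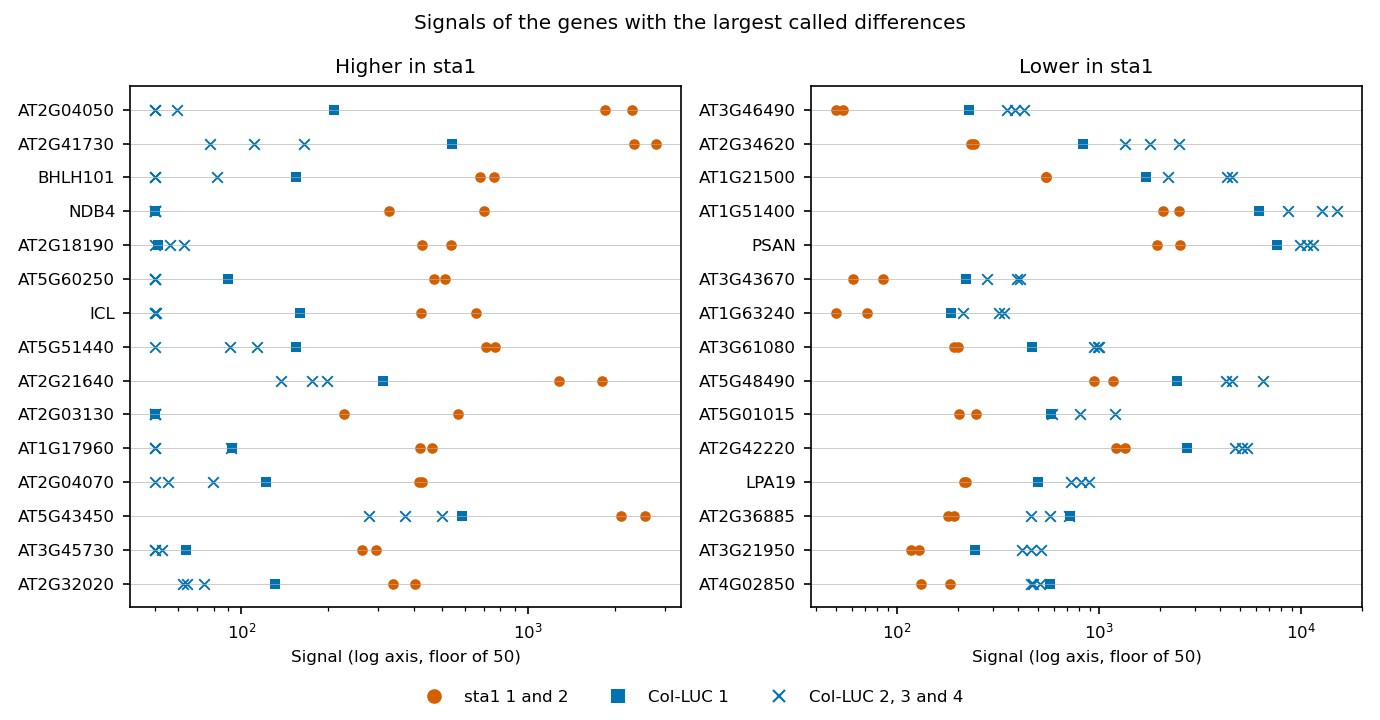
Signals (log axis, values under 50 drawn at 50) of the 15 genes with the largest called gains and the 15 with the largest called losses, by array. Orange circles are the sta1 arrays, blue squares Col-LUC 1 and blue crosses the other Col-LUC arrays; in every gene the orange circles lie beyond all blue symbols, and for AT2G04050 and ICL the blue square lies well above the crosses.

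Smaller gains were also called. BZIP60, a transcription factor of the unfolded protein response whose mRNA is itself spliced in the cytoplasm, gave 847, 571, 787 and 598 in Col-LUC and 1542 and 1797 in sta1. Its difference was 1.27 ± 0.20 (adjusted p = 0.0435, 0.97 within the lot). The other 13 genes tested for folding in the endoplasmic reticulum and its signalling had no call and differed by −0.27 to 0.43, among them the chaperone gene CRT1b (calreticulin) at 0.29 with overlapping groups. CDI, annotated as induced by cadmium, gave 1200 to 1793 in Col-LUC and 3248 and 3957 in sta1 (1.38 ± 0.20, adjusted p = 0.0333). UGT73C1, a glycosyltransferase that attaches sugars to small molecules, was under the floor on every Col-LUC array and read 141 and 138 in sta1, at least 2.79-fold more. NET3A, of a family of actin-binding proteins, and SMZ, a repressor of flowering, were further called gains named after their values were seen. NET3A read 91.2 to 190 in Col-LUC and 457 and 738 in sta1, and SMZ 128 to 179 against 317 and 338.

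Among the losses the largest with a single gene was AT3G46490, with signals of 227, 352, 427 and 386 in Col-LUC and 54.2 and 41.8 in sta1 (−2.70 ± 0.27 with sta1 2 at the floor, adjusted p = 0.0198, −2.13 within the lot). AT2G34620 followed with 835, 1797, 1347 and 2506 against 232 and 242 (−2.66 ± 0.39, adjusted p = 0.0365, −1.82 within the lot). Neither locus overlapped between the groups. At high signal, AT1G51400 read 6234, 12769, 8686 and 15101 in Col-LUC and 2487 and 2078 in sta1, a 4.45-fold loss. AT1G21500, AT3G43670, AT1G63240, AT3G61080, AT5G48490, AT2G42220, AT5G01015, AT2G36885, AT4G02850 and AT3G21950 fell by 1.69 to 2.42 on the log2 scale, and by up to 1.96 within the lot. AT2G36885 and AT4G02850 were the loci of this group whose loss was larger within the lot (−1.96 and −1.88) than over all arrays (−1.71 and −1.69).

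Of the 44 genes that fell, 6 have a symbol of their own, among them PSAN, LHCB4.2, LPA19 and TAPX of the chloroplast. In that organelle, photosystems I and II catch light through antenna proteins and move electrons across the thylakoid membrane, and peroxidases and thioredoxins deal with the reactive oxygen formed. PSAN, a small subunit on the lumen side of photosystem I, read 7611, 10674, 9916 and 11499 in Col-LUC and 2532 and 1932 in sta1. It fell by 2.15 on the log2 scale (SE 0.19, adjusted p = 0.0189), or 4.44-fold, and by 1.78 within the lot. LHCB4.2, a minor antenna protein of photosystem II, read 10248, 14744, 12836 and 14953 against 5207 and 5116 (−1.34 ± 0.17, adjusted p = 0.0296). In both genes the sta1 arrays lay far under the lowest wild-type array.

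These were the 2 calls among 8 photosystem and antenna genes tested, 7 of which had both sta1 arrays below all Col-LUC arrays. The list's median was −0.73 (−0.58 within the lot), against 0.008 over all tested probe sets. PSBW, PSB27, LHCB4.1, PSAE-1 and PSBY differed by −0.81 to −0.41 with adjusted p from 0.0539 to 0.153. LHCB4.3 was the exception: Col-LUC 1 gave 3703 and the other Col-LUC arrays 461, 746 and 1168, so that the sta1 signals of 1937 and 1262 overlapped with the wild type. With Col-LUC 1 left out, 5 of the 8 were called lower, against 8.99% of all tested probe sets.

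Proteins that assemble or protect the photosystems included a further pair of calls. LPA19, needed for the assembly of photosystem II, read 501, 819, 728 and 898 in Col-LUC and 215 and 219 in sta1 (−1.73 ± 0.24, adjusted p = 0.0327, −1.21 within the lot). The other 12 assembly and thylakoid genes had no call. Of them, 5 lay below all Col-LUC arrays, and HCF101, an iron-sulfur cluster scaffold of photosystem I, was level at 0.01. Without Col-LUC 1, 1 of the 13 in this list was called lower, against 8.99% of all tested probe sets. TAPX, the ascorbate peroxidase of the thylakoid that removes hydrogen peroxide, read 1301, 1921, 1925 and 1800 against 582 and 556 (−1.59 ± 0.19, adjusted p = 0.0296, −1.19 within the lot). Its stromal counterpart SAPX, named after its values were seen, read 1075 to 1896 against 808 and 682 without passing the test (adjusted p = 0.0738). The full list of 24 thiol and ascorbate redox enzymes had a median of 0.06, and 13 of them had a positive difference.

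Chlorophyll and haem are made from glutamate through the tetrapyrrole pathway. None of its 13 tested genes was called over the 6 arrays, yet 9 had both sta1 arrays below all Col-LUC arrays and the list's median was −0.47 (−0.23 within the lot). HEME2, a uroporphyrinogen decarboxylase, read 3038, 3459, 3731 and 3140 in Col-LUC and 2128 and 2026 in sta1 (−0.68 ± 0.13, adjusted p = 0.0564). CHLI2, a subunit of the chelatase that inserts magnesium, read 1245 to 1455 against 967 and 859 (−0.60 ± 0.14, adjusted p = 0.0724). PORB, the light-dependent reductase of protochlorophyllide and named after its values were seen, read 3345 in Col-LUC 1, 7980 to 10371 in the other Col-LUC arrays and 2966 and 3208 in sta1. For PORB the within-lot difference was −0.12 against −1.23 over all arrays. Without Col-LUC 1, 7 of the 13 were called lower, against 8.99% of all tested probe sets.

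Carbon fixation and the electron bypass of the chloroplast showed smaller values. In the list of carbon fixation and plastid ATP synthase, 5 of 6 genes lay below all Col-LUC arrays, by small amounts (median −0.31, −0.23 within the lot, no call). HPR, the hydroxypyruvate reductase of photorespiration, read 7422, 10485, 7821 and 11417 against 5881 and 5821, and PRK, phosphoribulokinase, 10440 to 12634 against 9181 and 9066. NdhS, the subunit of the plastid NDH complex that binds ferredoxin, read 1477, 3322, 1869 and 3303 against 852 and 898 (−1.42 ± 0.35, adjusted p = 0.0815, −0.76 within the lot). The 6 nuclear genes of that complex had a median of −0.29 and no call. The 69 tested genes of the plastid genome itself had a median of −0.08 and no call. Of them, 15 lay below and 2 above all Col-LUC arrays, against 18.8% below and 20.1% above over all tested probe sets. The count below was thus near that share. The 2 with the smallest p were psbE and psbD, which encode parts of the photosystem II core. psbE read 5326, 7707, 8361 and 9513 against 3479 and 3346 (−1.15 ± 0.22, adjusted p = 0.0564), and psbD read 5900 to 8772 against 4233 and 4887 (−0.74 ± 0.17). At the other end, ndhF, an NDH subunit named after its values were seen, read 54.5 to 141 against 275 and 361 (1.55, adjusted p = 0.0925).

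**Figure D4:**
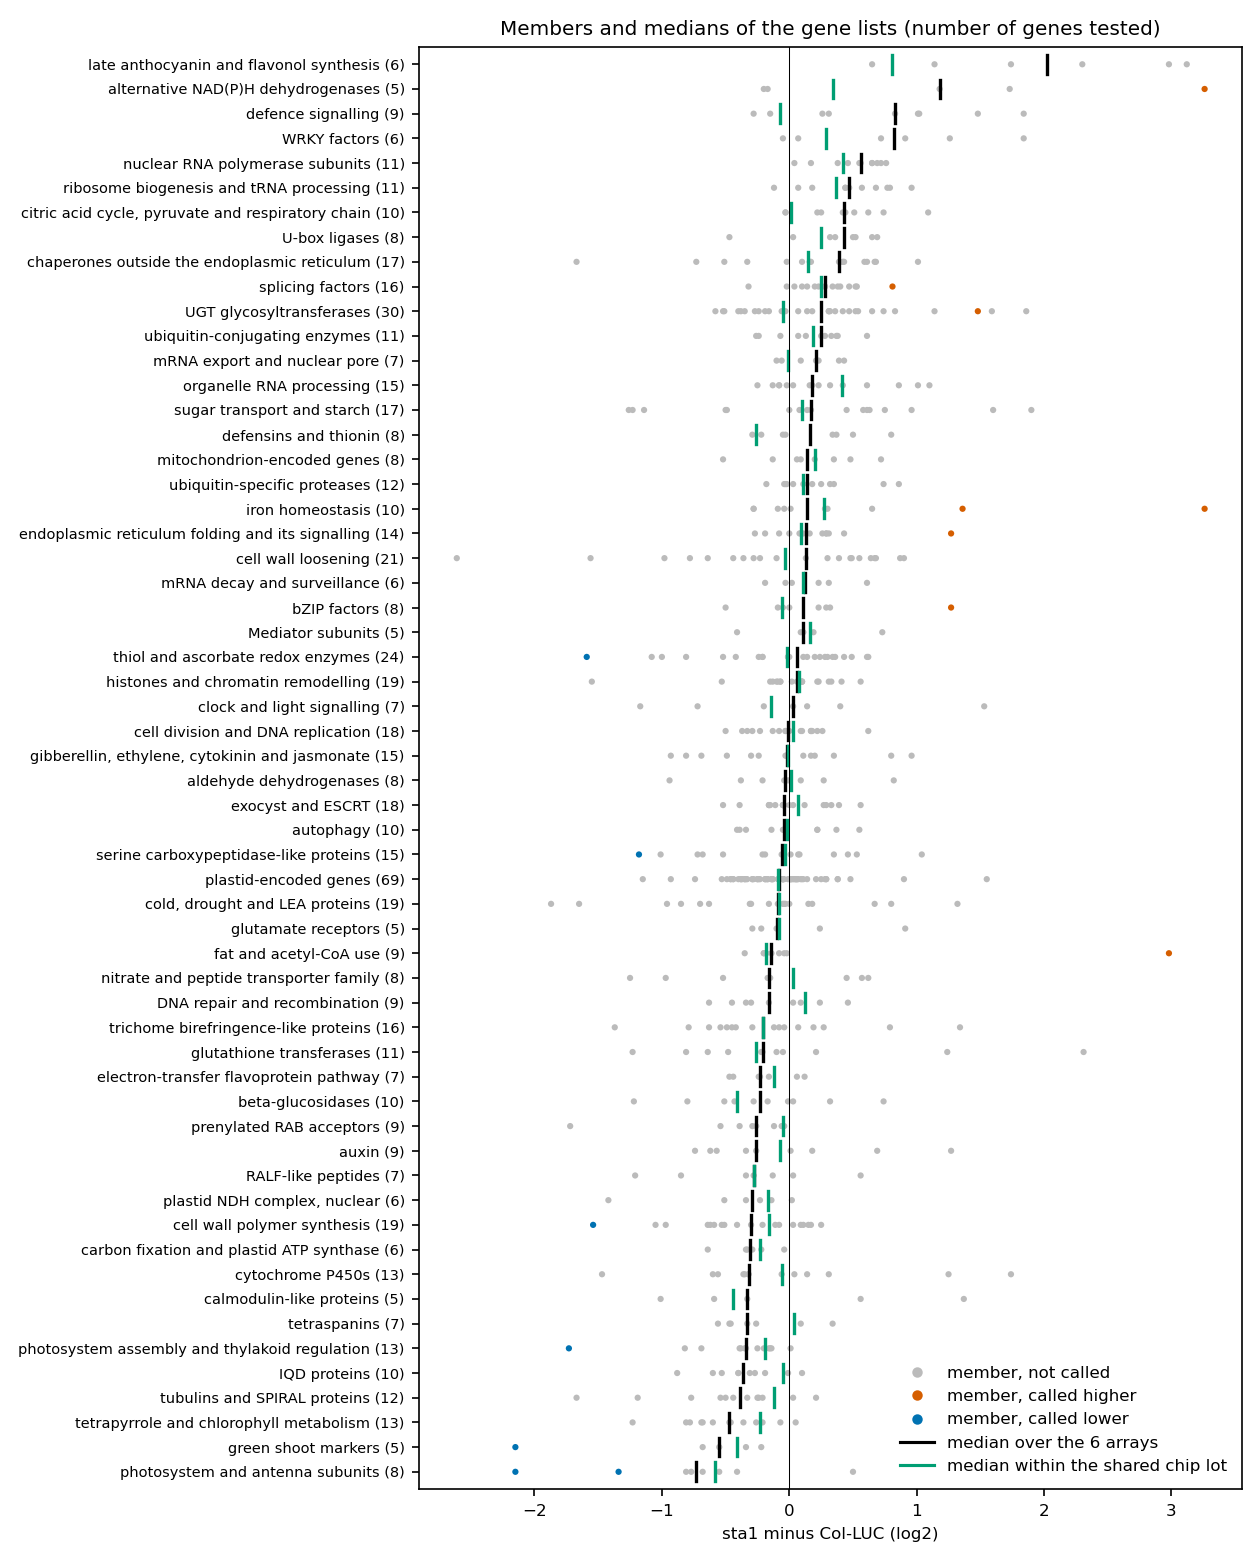
Log2 difference between sta1 and Col-LUC for each member of the gene lists with at least 5 tested genes, ordered by median. Black bars are medians over the 6 arrays and green bars medians within the shared chip lot; the medians run from −0.73 for photosystem and antenna genes to 2.02 for late anthocyanin genes, where the green bar is at 0.81.

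Of 15 RNA-binding proteins that process organelle transcripts, 6 lay above all Col-LUC arrays, 0 below and 9 overlapped, with a median of 0.18 (0.41 within the lot) and no call. PPR596, a pentatricopeptide repeat protein of mitochondria, read 650, 450, 596 and 450 against 1066 and 1203 (1.10 ± 0.20, adjusted p = 0.0528, 0.80 within the lot). OTP81, which edits plastid RNA, read 161 to 197 against 332 and 325 (0.86 ± 0.16, adjusted p = 0.0533). Without Col-LUC 1, 3 of the 15 were called higher, against 9.35% of all tested probe sets.

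In the mitochondrion, the other alternative dehydrogenases NDB2 and NDB3 also lay above all Col-LUC arrays, while NDB1 overlapped and NDC1, which works in chloroplasts as well, lay below. The median of the 5 was 1.18 over the 6 arrays and 0.34 within the lot. NDB3 read 144, 66.9, 73.7 and 124 against 252 and 408 (1.73, adjusted p = 0.0695, 1.16 within the lot). NDB2 read 828, 369, 317 and 470 against 1005 and 1092 (1.18, adjusted p = 0.114, 0.34 within the lot). Both were named after their values were seen. The list of citric acid cycle, pyruvate and respiratory chain genes had a median of 0.43 over the 6 arrays and 0.01 within the lot, with 5 of 10 above all Col-LUC arrays. SDH1-1, the flavoprotein of succinate dehydrogenase, shows the pattern: it read 3151 in Col-LUC 1, 1357 to 1870 in the other Col-LUC arrays, and 4067 and 3878 in sta1 (1.09 ± 0.32, adjusted p = 0.107). Cytochrome c gene CYTC-1 read 7566 in Col-LUC 1, 4860 to 5636 in the others, and 8524 and 7847 in sta1. Genes of fat breakdown and acetyl-CoA use other than ICL differed by −0.35 to −0.02, so that ICL was the single call of the 9 (median −0.14). The 7 genes of the electron-transfer flavoprotein pathway, which feeds electrons from amino acid breakdown into respiration, had a median of −0.23 and no call. Of 8 genes of the mitochondrial genome none was called and the median was 0.14; ccb382, for cytochrome c maturation, read 1159 to 1838 against 2437 and 2404 (0.72, adjusted p = 0.0925), and ccb452, of the same process, 308 to 475 against 279 and 271 (−0.52, adjusted p = 0.157).

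Splicing is the process in which STA1 itself acts. Of 16 splicing factors tested, 1 rose, 9 lay above all Col-LUC arrays and 0 below, and the median was 0.28 over the 6 arrays and 0.25 within the lot. The gene called was AT1G28060, annotated as RDM16, a relative of the human spliceosome protein PRP3 that also acts in RNA-directed DNA methylation. It read 452, 469, 428 and 513 in Col-LUC and 826 and 806 in sta1 (0.81 ± 0.14, adjusted p = 0.0463, 0.85 within the lot). The rise was thus under 2-fold, with wild-type arrays that agreed closely, Col-LUC 1 included. LSM6B, part of the Sm-like ring that binds the end of a spliceosomal RNA, and AtRZ-1b, an RNA-binding zinc finger protein, were named after their values were seen. LSM6B read 401 to 480 against 626 and 620 (0.53, adjusted p = 0.0925), and AtRZ-1b 193 to 262 against 321 and 324 (0.52, adjusted p = 0.125). PRP39-2 had the lowest value, −0.32, with overlapping groups. Without Col-LUC 1, 3 of 16 were called higher, against 9.35% of all tested probe sets.

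None of 6 RNA decay and surveillance genes or 7 export and nuclear pore genes was called, and their medians were 0.12 and 0.21 (0.11 and −0.01 within the lot). RRP41L, related to a core subunit of the RNA exosome, read 117 to 201 against 228 and 300 (0.61 ± 0.26, adjusted p = 0.203). UPF3, of nonsense-mediated decay, overlapped at −0.03.

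All 11 nuclear RNA polymerase subunits tested had a positive difference and 8 lay above all Col-LUC arrays, with a median of 0.56 (0.42 within the lot) and no call. NRPA2, the second-largest subunit of RNA polymerase I, read 824, 721, 689 and 648 against 1097 and 1280 (0.72 ± 0.15, adjusted p = 0.0676). NRPE7, a subunit of the plant-specific polymerase V, read 264, 267, 245 and 240 against 379 and 440 (0.69 ± 0.14, adjusted p = 0.0674). Both NRPA2 and NRPE7 had sta1 arrays above every wild-type array by a small margin. Of the 11 subunits, 7 were called higher without Col-LUC 1, against 9.35% of all tested probe sets. Of 11 genes of ribosome biogenesis and tRNA processing, 7 lay above all Col-LUC arrays, with a median of 0.47 (0.37 within the lot) and no call. Without Col-LUC 1, 2 of these 11 were called higher, against the same 9.35%. YAO, a nucleolar protein of pre-rRNA processing, read 564, 465, 429 and 375 against 809 and 958 (0.96 ± 0.19, adjusted p = 0.0605, 0.64 within the lot).

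**Figure D5:**
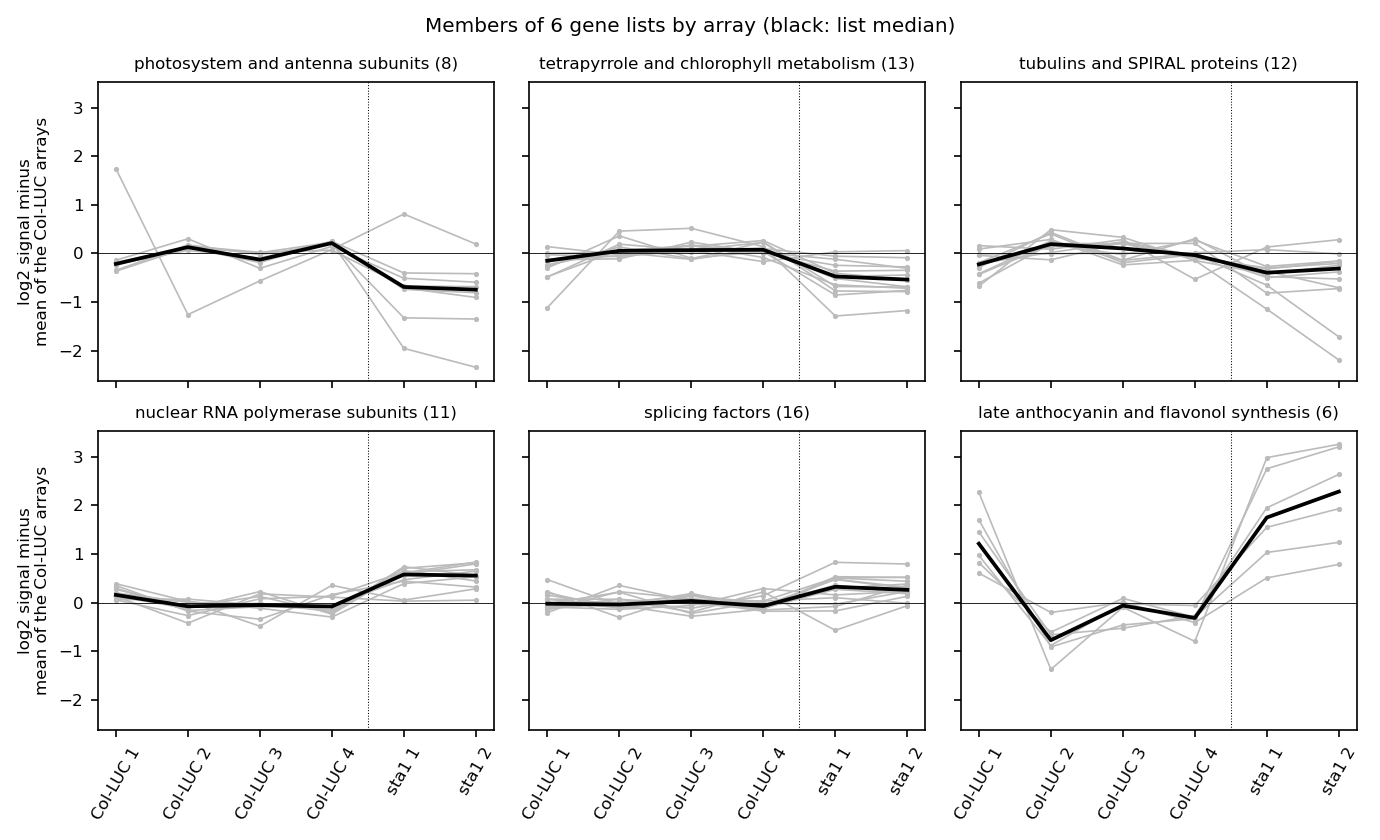
Log2 signal minus the mean of the Col-LUC arrays for each member (grey) and the median (black) of 6 gene lists, by array. The medians of the splicing factors are near 0 on all Col-LUC arrays, whereas the anthocyanin list is high on Col-LUC 1 as well as on the sta1 arrays.

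Late anthocyanin and flavonol genes had the largest list median, 2.02 over the 6 arrays, and 0.81 within the lot. These enzymes make red pigments and sunscreen flavonols. All 6 had a positive difference, 5 lay above all Col-LUC arrays, and 0 were called. UF3GT, a sugar transferase of anthocyanins, read 724 in Col-LUC 1, 118, 162 and 177 in the others, and 1504 and 2054 in sta1 (2.98 ± 0.66, adjusted p = 0.0710, 1.28 within the lot). CHIL, a chalcone isomerase-like protein, read 1655 in Col-LUC 1, 458, 829 and 811 in the others, and 2475 and 3227 in sta1 (1.74 ± 0.44, adjusted p = 0.0878). Col-LUC 1 was thus the highest wild-type array in both. Without it, all 6 genes were called higher, against 9.35% of all tested probe sets.

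Other enzyme families were mixed. Among 11 glutathione transferases, which conjugate toxic compounds, GSTU22 read 150 to 304 against 437 and 663 and GSTU18 581 to 1332 against 455 and 379, and the median was −0.21 with no call. The 30 UGT glycosyltransferases had UGT73C1 as the single call and a median of 0.25 (−0.05 within the lot). Of 15 serine carboxypeptidase-like genes, whose products cut peptides or transfer acyl groups, scpl50 fell. It read 288, 389, 459 and 388 in Col-LUC and 164 and 168 in sta1 (−1.18 ± 0.20, adjusted p = 0.0471, −0.79 within the lot). The list's median was −0.06. In the 8 aldehyde dehydrogenases (median −0.03, no call) the extremes were ALDH11A3, a cytosolic enzyme of glyceraldehyde phosphate oxidation, at −0.94 and ALDH2C4, of ferulic and sinapic acid synthesis, at 0.82. No cytochrome P450 (13 tested, median −0.32) or beta-glucosidase (10 tested, median −0.23) was called.

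Sugar and starch genes also went both ways. APL4, a large subunit of the first enzyme of starch synthesis, read 217, 126, 182 and 378 in Col-LUC and 615 and 982 in sta1 (1.90 ± 0.42, adjusted p = 0.0699, 1.84 within the lot). SWEET17, a fructose transporter of the vacuole, read 934, 1943, 1173 and 1970 against 665 and 634 (−1.14 ± 0.32, adjusted p = 0.10, −0.53 within the lot). Neither passed the test, although both were separated. The 17 tested genes had a median of 0.17.

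Some stress and defence genes differed widely between wild-type arrays. Cold-responsive COR15A, which protects chloroplast membranes during freezing and was named after its values were seen, read 443, 4118, 411 and 2250 in Col-LUC and 291 and 336 in sta1 (−1.87, adjusted p = 0.254). Col-LUC 1 and 3 were therefore near the sta1 level. The 19 cold, drought and LEA genes had no call and a median of −0.09. DI21, a drought-induced gene, read 949 to 1381 against 1971 and 2143 (0.80 ± 0.18, adjusted p = 0.0738), and DI19, a zinc finger protein of the drought response, 3786 to 7956 against 2860 and 3300 (−0.85 ± 0.28, adjusted p = 0.128). Defensin PDF1.2, a jasmonate-response gene named after its values were seen, read 7653, 48.4, 3214 and 178 in Col-LUC and 1344 and 335 in sta1. Its groups overlapped fully, with a difference of −0.03, and none of the 8 defensin and thionin genes was separated (median 0.16).

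The defence signalling list had a median of 0.83 over the 6 arrays and −0.07 within the lot, and the WRKY list 0.82 and 0.29. WRKY53, a transcription factor of leaf senescence and defence, read 178, 43.1, 37.8 and 45.8 against 328 and 184 (1.84 ± 0.57, adjusted p = 0.119, 0.46 within the lot). Here sta1 2 was barely above Col-LUC 1. WRKY47 read 407, 237, 392 and 266 against 755 and 762 (1.26 ± 0.25, adjusted p = 0.0605, 0.90 within the lot). BIK1, a receptor-associated kinase of immunity, read 302 to 655 against 870 and 923. Neither list had a call over the 6 arrays. Without Col-LUC 1, 3 of 8 defence genes and 3 of 6 WRKY genes were called higher, against 9.35% of all tested probe sets.

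None of the 9 auxin genes, 15 genes of other hormones or 7 clock and light genes was called, and the medians were −0.26, −0.02 and 0.03. RTE1, a regulator of the ethylene receptor, read 383, 385, 506 and 492 in Col-LUC and 209 and 253 in sta1 (−0.93 ± 0.19, adjusted p = 0.0605, −0.74 within the lot). GID1A, a gibberellin receptor, read 435 to 763 against 932 and 1075 (0.80 ± 0.22, adjusted p = 0.101). For GH3.3, which conjugates auxin to amino acids, the groups overlapped and the sign depended on the arrays, at 1.27 over the 6 arrays and −0.15 within the lot. GI, of the circadian clock, read 341, 1636, 491 and 870 against 326 and 295 (−1.17 ± 0.56, adjusted p = 0.235, −0.14 within the lot). Among 8 bZIP transcription factors BZIP60 was the single call (median 0.11).

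Genes of wall polymer synthesis and of microtubules had medians below 0. GH9B8, of a family of endoglucanases that trim cellulose, was the single call among 19 genes of wall polymer synthesis (median −0.30, −0.16 within the lot). It read 381, 615, 597 and 600 in Col-LUC and 212 and 161 in sta1 (−1.54 ± 0.24, adjusted p = 0.0408, −1.04 within the lot). Of 12 tubulin and SPIRAL genes, whose products form and guide microtubules, 7 lay below all Col-LUC arrays and 0 above, with a median of −0.39 (−0.12 within the lot). SP1L4, a SPIRAL1-like protein, read 243, 279, 194 and 207 against 103 and 39.6 (−1.67 ± 0.31, adjusted p = 0.0539, −1.76 within the lot). SP1L2 read 294 to 443 against 213 and 102. The 2 sta1 arrays differed more from each other in these genes than in the photosystem genes, but both lay below the wild type. EXPB3, an expansin that loosens walls, read 1210, 2943, 1601 and 2935 against 758 and 619 (−1.56 ± 0.38, adjusted p = 0.0815), while the 21 wall-loosening genes had a median of 0.13 and no call. The 16 TBL proteins, many of which acetylate wall polymers, had a median of −0.21; TBL36 read 925, 1856, 1019 and 1413 against 677 and 347 (−1.37, adjusted p = 0.0903).

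Basic cell functions had no call. Cell division and DNA replication (18 genes), histones and chromatin remodelling (19), autophagy (10), exocyst and ESCRT (18) and Mediator (5) had medians between −0.04 and 0.11. The 9 DNA repair genes had a median of −0.16; RAD4, which recognises damaged bases in yeast, read 251, 321, 292 and 330 against 193 and 191 (−0.63, adjusted p = 0.0925). Ubiquitin-conjugating enzymes (11 tested), ubiquitin-specific proteases (12) and U-box ligases (8), which tag proteins for breakdown or remove the tag, had medians of 0.25, 0.14 and 0.43, also without a call. UBP25 read 333 to 508 against 679 and 827 (0.86 ± 0.20, adjusted p = 0.0758). Chaperones outside the endoplasmic reticulum ranged from −1.67 to 1.01 with a median of 0.39 (0.15 within the lot). Hsp70-2, a cytosolic chaperone, read 353 to 584 against 920 and 804 (1.01 ± 0.22, adjusted p = 0.0701), and Cpn60beta4, a chaperonin subunit of the chloroplast, 651 to 853 against 434 and 448 (−0.73 ± 0.16, adjusted p = 0.0677).

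Families of transport and signalling were also without a call. The medians were −0.16 in 8 nitrate and peptide transporters, −0.26 in 9 prenylated RAB acceptors, −0.33 in 5 calmodulin-like proteins, −0.10 in 5 glutamate receptors, −0.33 in 7 tetraspanins, −0.28 in 7 RALF-like peptides and −0.36 in 10 IQD proteins. GTR2, a glucosinolate transporter, read 1024 to 1484 in Col-LUC and 2047 and 1819 in sta1 (0.62, adjusted p = 0.114). AT2G26690 of the same family read 976, 1457, 2396 and 2977 against 731 and 768 (−1.25, adjusted p = 0.132, −0.38 within the lot). The pair thus differed in opposite directions. PRA1.F1, of membrane traffic, read 119, 232, 408 and 352 against 87.3 and 66.3 (−1.72, adjusted p = 0.0984, −0.64 within the lot). CML41, a calcium sensor, read 196, 85.2, 114 and 97.4 against 341 and 267 (1.37, adjusted p = 0.0835, 0.62 within the lot), and CML30 of that family 177, 260, 370 and 225 against 145 and 106 (−1.01, adjusted p = 0.111, −0.52 within the lot). All 5 genes were separated between the groups, and Col-LUC 1 was the wild-type array nearest to sta1 in each of them.

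At high mean signal, called genes beyond those above were known by locus. AT5G56350 read 1109 to 1894 in Col-LUC and 3361 and 3968 in sta1, and AT3G18280 read 1147 to 1727 against 2693 and 3363. AT1G20100 and AT4G20480 had wild-type arrays that agreed closely, at 888 to 974 and 941 to 1184, and rose to 1793 and 1685 and to 1929 and 1906. Their within-lot differences, both 0.91, were no smaller than those over all arrays (0.89 and 0.86). On the lower side, AT3G47070 read 4309 to 6391 against 2510 and 1965, and AT3G50685 read 4161 to 7482 against 2092 and 2338. All 6 loci were separated between the groups, with adjusted p from 0.0328 to 0.0471.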

How the data were processed

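Seedling RNA was hybridised to Affymetrix ATH1 arrays (biotin label, 1 colour). The deposited intensities are MAS5 signals, scaled by the authors to a global target of 500, per the labels (MAS5 release: not given in the sources used here). Signals under 50 were set to 50 and log2-transformed without further normalization, and 64 control probe sets were left out. limma 3.58.1 (R 4.3.3; lmFit, eBayes with an intensity trend) was fitted to 15537 probe sets on 6 arrays, with Benjamini-Hochberg adjustment and a threshold of 0.05. On simulated data for this comparison (15537 probe sets) 30 of 100 simulated 2-fold changes and 87 of 100 simulated 4-fold changes were called, with 3 false calls. The simulated noise was drawn independently for each array, with neither the floor of 50 nor a shared chip lot. These rates therefore do not carry over to the calls on the real arrays. The platform annotation gave 1 gene for 13513 probe sets, several for 503 and none listed for 8730; 13436 matched RefSeq (TAIR10.1). Chip lot and hybridisation date came from the scanner's experiment files. The named genes are the 15 largest separated calls and the 5 calls of highest mean signal in each direction, and per list up to 4 calls or, with none, the 2 smallest p-values; other list members in the text were chosen after their values were seen. The 59 lists and the members were chosen with earlier results of these data known. Lists were described by counts and medians without a test. Alternatives were the floor, filter, normalization, eBayes settings, array weights, each array left out, C24-LUC added, blocks for replicate number and chip lot, and a threshold of 0.10. The number of arrays limits the precision.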

Additional observations from a re-analysis of the deposited data

Results flagged for a closer look

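Among the 4 Col-LUC arrays, 9 of 136 named genes had 1 array far from the other 3 by Dixon's criterion at 95%. The criterion was applied to log2 signals with the floor of 50. For AT2G04050, AT5G60250, ICL and WRKY53 the floor raised other wild-type signals to 50, which narrows their spread and favours a flag. The nominal rate gives about 6.8 flags, a rough guide only, since many genes were named by p-value or separation. In 6 of the 9 genes the array apart was Col-LUC 1. Its signal was 211.1 for AT2G04050 (others 11.3 to 59.9), 89.7 for AT5G60250 (10.8 to 45.3), 160.2 for ICL (7.6 to 50.5) and 178.3 for WRKY53 (37.8 to 45.8), each on the side of sta1. It was 381.2 for GH9B8 (others 596.9 to 615.4) and 468.6 for AT3G61080 (945.1 to 1005.2), again on the side of sta1. The single arrays elsewhere were Col-LUC 2 at 117.0 for RRP41L (others 187.7 to 200.5), and Col-LUC 4 at 277.7 for ATG8D (387.3 to 403.6) and 1255.4 for BGLU40 (638.1 to 643.3).

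Of 11 plant control probe sets that the comparison left out, 4 read above every Col-LUC array in both sta1 arrays and 0 read below. Over all tested probe sets 20.1% lay above and 18.8% below. The ratio of sta1 to Col-LUC was 3.08 for the ribosomal RNA control AFFX-Athal-5SrRNA_at. The 3 probe sets along the GAPDH transcript gave ratios of 1.595, 1.666 and 1.413. Their part in the results was not tested.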

How the results depend on the processing

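The counts of 95 higher and 98 lower probe sets stayed within 1.5 times under other floors, a filter at 200 or on 1 array, quantile normalization, median centring, robust eBayes and both fits with C24-LUC added. With no intensity trend they were 62 and 50, and with no filter on low signals 35 and 6. Array weights gave 1886 and 1845, a threshold of 0.10 gave 629 and 657, and chip lot as a random block, chosen after seeing the data, gave 705 and 654. Chip lot as a block gave 0 and 0 (2346 at an unadjusted p under 0.05). With the replicate block the counts were 0 and 0 (2201 at an unadjusted p under 0.05). Only numbers 1 and 2 occur in both groups, the deviations of same-numbered arrays correlated at 0.191 and −0.009, and the labels do not pair them. The chip lot block and the replicate block each estimate nearly as many terms as there are arrays, so 0 calls there say little about the main calls. Leaving out 1 array gave 0 to 1440 higher and 0 to 1385 lower, the upper ends without Col-LUC 1. Array weights were lowest for Col-LUC 1 (0.407) and highest for both sta1 arrays (1.91). Of the 45 named calls, 4 were called with no filter on low signals and 27 with no intensity trend; in 7 settings (both blocks and each array but Col-LUC 1 left out) 0 were. Their sign could not turn when an array was left out, since the groups do not overlap. Uncalled GH3.3 turned to −0.15 and GLR2.7 to −0.15 with the chip lot block, and EXPA18 ran from −0.58 to 0.02 without 1 sta1 array. The causes were not tested.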
